A study of Mus musculus with 8 samples.

Results

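Mouse median eminence (ME) was examined for 9 genes of glucose and lactate handling, chosen by name: Slc2a1, Slc2a3, Hk1, Aldoc, Ldha, Ldhb, Slc16a1, Slc16a7 and Pdk4. The choice was made with earlier results of these data known. All 9 were found among 27998 genes of a single-cell table and among 55450 genes of a bulk table. The single-cell library held ME cells of 10 female wild-type mice, labelled C57BL/6 and 2 months old (C57BL/6N in the study's methods), pooled before papain dissociation and run on the 10x droplet platform, in which every captured RNA molecule receives its own barcode, the unique molecular identifier (UMI). The bulk libraries came from microdissected ME of mice that the labels likewise give as C57BL/6 and 2 months old (C57BL/6N background in the methods), 3 control (labelled WT) and 4 mutant (labelled Rax::BrafV600E), each made by the Smart-seq2 method. In the mutants a Cre recombinase driven from Rax, a gene of tanycytes, and activated by tamoxifen switches on the oncogenic BrafV600E allele, and the study's methods place the dissection 2 months after tamoxifen. The methods give tamoxifen to adult mice, so if that interval holds, the labelled 2 months cannot be the mutants' age at dissection. The study describes such mutant ME, 2 months after induction, as tumour tissue resembling papillary craniopharyngioma. The sex of the bulk mice, and whether the controls carried Cre or received tamoxifen, are not given in the sources used here. The ME lies at the floor of the third ventricle, where tanycytes, elongated cells related to ependymal cells, line the ventricle and send processes to blood vessels.

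Glucose enters cells through facilitative transporters such as those encoded by Slc2a1 (GLUT1) and Slc2a3 (GLUT3), is trapped by hexokinase, and is split during glycolysis by aldolase. Lactate dehydrogenase interconverts pyruvate and lactate as a tetramer of the A subunit (Ldha) and the B subunit (Ldhb), the former usually linked to lactate production and the latter to lactate use. Monocarboxylate transporters encoded by Slc16a1 (MCT1) and Slc16a7 (MCT2) carry lactate across membranes, and Pdk4 encodes a kinase that inhibits pyruvate dehydrogenase. Tanycytes are known as glucose-sensing cells that express glucose and monocarboxylate transporters.

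The single-cell table held 990 cells and 9846289 UMIs, between 3284 and 57119 per cell. Cells were clustered without the 9 genes or other genes of the pathway, so that these genes did not define the clusters they are described over. Of 11 clusters, 10 were named from marker genes. The tanycyte-like cluster (178 cells, 10 of 12 tanycyte markers, led by Sfrp2 and Scn7a) and the ependymal-like cluster (49 cells, 8 of 10 ependymal markers, led by Cfap126 and Dynlrb2) merged at some other clustering settings, and the latter also carried 5 of 12 tanycyte markers. The other named clusters were erythrocyte-like (241 cells), vascular and leptomeningeal cell (VLMC)-like (180), macrophage- or microglia-like (81), oligodendrocyte precursor cell (OPC)-like (60), pars tuberalis-like (54), neuron-like (49), oligodendrocyte-like (44) and NK- or T-cell-like (31). The VLMC-like cluster also held 10 of 10 endothelial and 7 of 8 mural markers, so blood vessel cells are within it. A cluster of 23 cells led by Krtdap, Nov, Abcb1a and Slc47a1 stayed unnamed. Levels are counts per 1000000 (CPM), the UMIs of a gene summed over a cluster and divided by all UMIs there. Their 95% intervals are exact Poisson ones. Shares of cells with a UMI have an exact Clopper-Pearson 95% interval. All cells share 1 library, so no test between clusters was run, and both intervals cover counting error only. Erythrocyte-like cells (median 7747 UMIs) served as the background set by free RNA, beside a median of 7889 UMIs in tanycyte-like cells.

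Aldoc was at its highest in tanycyte-like cells, and Slc2a1, Ldha and Ldhb in ependymal-like cells. Slc2a3 and Hk1 were highest in neuron-like cells, Slc16a1 in the unnamed cluster, Slc16a7 in OPC-like cells and Pdk4 in oligodendrocyte-like cells, the last 2 of these on 9 UMIs and 3 UMIs. Thus 1 of 9 members peaked in the tanycyte-like cluster, beside 1587 of the 18181 genes with any UMI. A count over the tanycyte- and ependymal-like clusters together was added after the data were seen. It was 4 of 9, beside 21.4% of those genes and 18.4% of the 7113 genes that reached 50 CPM in some cluster. The 9 genes were not drawn blind to these data, so no enrichment is read from either count. With the cells clustered over 10 components this combined count was 1 of 9, Slc2a1. A further cluster of 27 cells led by Oxt formed at that setting, and is described below with Aldoc and Ldhb. The ependymal-like cells merged with the tanycyte-like ones there, but also at resolution 0.4 and with 30 components, where the count was 3 and 4. A tanycyte-like cell carried UMIs of a median of 4 of the 9 genes, and 80 of 178 such cells carried 5 or more. In ependymal-like cells the median was also 4, and 23 of 49 carried 5 or more. Neuron-like cells had a median of 5, and 32 of 49 carried 5 or more, with a median of 31422 UMIs per cell. Among erythrocyte-like cells, 125 of 241 carried none.

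**Figure D1:**
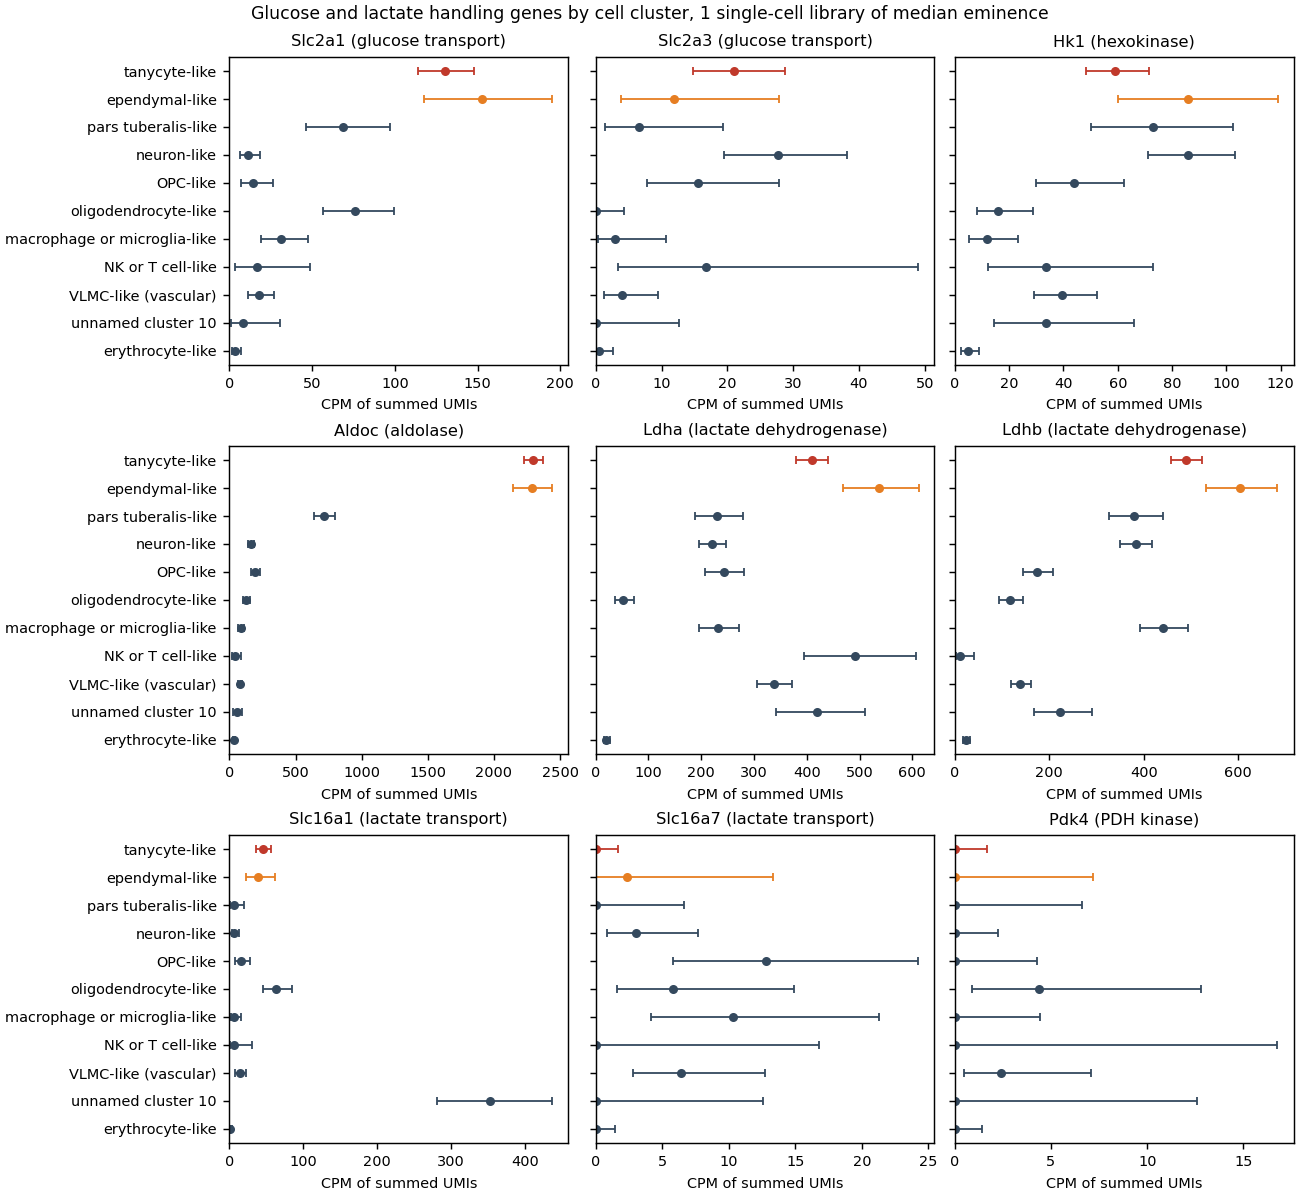
Level of each of the 9 genes in each cluster of the single-cell library, in CPM of summed UMIs (horizontal axis, linear, its range set per gene). Points are the value of a cluster, bars the exact Poisson 95% interval (with 0 UMIs, the bar ends at 3 UMIs), red marks the tanycyte-like and orange the ependymal-like cluster; Aldoc stood at 2298 and 2291 CPM in these, and Slc16a1 at 353 CPM in the unnamed cluster against 62.7 CPM or less elsewhere.

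Among the glucose transporters, Slc2a1 (ENSMUSG00000028645, chr4:119108711-119137983, plus strand, GRCm38) was the more abundant in tanycyte-like cells. It reached 152.7 CPM (117.6 to 195.0) in ependymal-like cells and 130.3 CPM (114.2 to 148.1) in tanycyte-like cells, intervals that overlap. Oligodendrocyte-like cells followed at 75.8 CPM and pars tuberalis-like cells at 68.5 CPM, below both. In the VLMC-like cluster, with all 10 endothelial markers, Slc2a1 was at 17.7 CPM (11.1 to 26.8), 7.35-fold below tanycyte-like cells. The 55 of these cells that separated at a finer resolution were led by Ly6c1, Bmper, Ogn, Clec3b and Pi16. They held 10 of 10 endothelial but also 7 of 8 VLMC and 5 of 8 mural markers, so vessel cells were not set apart. Slc2a1 was at 31.4 CPM (16.2 to 54.8) in these 55 cells. Cells with a Slc2a1 UMI made up 68.0% of tanycyte-like cells and 2.90% of erythrocyte-like cells. Tanycyte-like cells held 51.0% of all Slc2a1 UMIs of the library while being 18.0% of its cells.

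Slc2a3 (ENSMUSG00000003153, chr6:122727809-122801640, minus strand), known as the neuronal glucose transporter, was detected less often, with 105 UMIs in all. Its level was 27.7 CPM (19.5 to 38.1) in neuron-like cells and 21.0 CPM (14.8 to 28.8) in tanycyte-like cells, which overlap. NK- or T-cell-like cells (3 UMIs) and OPC-like cells followed at 16.8 CPM and 15.6 CPM, and oligodendrocyte-like cells held 0 UMIs, which allows up to 4.37 CPM. Slc2a1 made up 86.1% (81.5 to 90.0) of the 274 UMIs of both transporters in tanycyte-like cells and 28.8% (17.1 to 43.1) of 52 in neuron-like cells. In oligodendrocyte-like cells all 52 were of Slc2a1. The balance of the 2 transporters therefore lay on opposite sides in tanycyte-like and neuron-like cells, with intervals that do not overlap.

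Hk1 (ENSMUSG00000037012, chr10:62268855-62379908, minus strand), the hexokinase of most brain cells, was spread more evenly. It stood at 86.0 CPM (71.0 to 103.2) in neuron-like, 85.9 CPM (60.2 to 118.9) in ependymal-like, 73.0 CPM in pars tuberalis-like and 59.1 CPM (48.4 to 71.4) in tanycyte-like cells. Each cluster overlapped with the next in this order. A Hk1 UMI was seen in 83.7% of neuron-like and 39.9% of tanycyte-like cells, but neuron-like cells had a median of 31422 UMIs. With every cell thinned to 3000 UMIs the shares were 20.4% and 16.3%.

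Aldoc (ENSMUSG00000017390, chr11:78322968-78327781, plus strand) encodes aldolase C, an isoform typical of astroglia. It was at 2298 CPM (2229 to 2369) in tanycyte-like and 2291 CPM (2148 to 2440) in ependymal-like cells, and these did not differ beyond counting error. Pars tuberalis-like cells followed at 718 CPM, and the remaining clusters lay between 34.3 CPM and 197 CPM. Nearly all tanycyte-like cells carried it, 176 of 178, against 24.9% of erythrocyte-like cells. Its level was 67.0-fold higher in tanycyte-like than in erythrocyte-like cells. The value of the pars tuberalis-like cluster was a mixture. When the cells were clustered with 10 components, 18 of its 54 cells left it for a cluster of 27 cells led by Oxt, Mt3 and Sfxn5, and in these 18 Aldoc was at 2572 CPM (2224 to 2959), with a median of 3861 UMIs per cell and none of the 8 pars tuberalis markers. In the 35 cells that kept 7 of 8 pars tuberalis markers, Aldoc was at 346 CPM (289 to 411). Slc2a1 was at 80.5 CPM (54.3 to 114.9) in these 35 cells, and had 1 UMI in the 18.

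The 2 lactate dehydrogenase subunits were both abundant in the ventricular clusters and diverged elsewhere. Ldha (ENSMUSG00000063229, chr7:46841475-46855627, plus strand) was at 537 CPM (469 to 612) in ependymal-like, 492 CPM (395 to 606) in NK- or T-cell-like, 420 CPM in the unnamed cluster, 409 CPM (380 to 440) in tanycyte-like and 338 CPM in VLMC-like cells. It was lowest among nucleated cell clusters in oligodendrocyte-like cells, at 52.5 CPM, 10.2-fold below ependymal-like cells. Ldhb (ENSMUSG00000030246, chr6:142490249-142507957, minus strand) was at 604 CPM (532 to 683) in ependymal-like, 489 CPM (458 to 523) in tanycyte-like, 441 CPM in macrophage- or microglia-like, 383 CPM in neuron-like and 380.2 CPM in pars tuberalis-like cells. For Ldhb the intervals of the ependymal-like and tanycyte-like clusters did not overlap. The pars tuberalis-like value was again a mixture. The 18 cells that left that cluster at 10 components held Ldhb at 923 CPM (720 to 1166), above the ependymal-like interval. They held Ldha at 475 CPM (333 to 657). In the 35 cells that kept the markers, Ldhb was at 265.5 CPM and Ldha at 180 CPM. NK- or T-cell-like cells held 2 UMIs of Ldhb, or 11.2 CPM (1.35 to 40.4), in which they stood at the other end from Ldha. A UMI of Ldha was found in 89.3% and one of Ldhb in 92.7% of tanycyte-like cells, and in 14.1% and 18.7% of erythrocyte-like cells.

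Since a UMI stands for 1 transcript end whatever the transcript's length, the share of Ldha among the UMIs of both subunits can be set side by side across clusters. It was 97.8% (92.2 to 99.7) in NK- or T-cell-like, 70.9% (67.0 to 74.5) in VLMC-like, 65.4% in the unnamed cluster and 58.2% in OPC-like cells. Ependymal-like and tanycyte-like cells lay near an even balance of UMIs, at 47.1% (42.5 to 51.7) and 45.5% (43.1 to 48.0). Of the 50-base stretches of Ldhb 21.0%, and of those of Ldha 9.03%, also occur in other annotated genes. Their effect on UMI counts was not tested, so nearness to an even balance is less certain than differences between clusters. Neuron-like cells were at 36.5% (33.1 to 39.9), macrophage- or microglia-like cells at 34.4% and oligodendrocyte-like cells at 31.0%. The immune clusters lay far apart on this scale, lymphoid cells at its upper end and macrophage- or microglia-like cells near its lower end. The OPC-like value again joined unlike cells. At a finer resolution, 38 cells led by Top2a, a gene of dividing cells, had 46.9% (39.8 to 54.2), and 22 cells led by Enpp6, a marker of differentiating oligodendrocytes, had 80.6% (71.4 to 87.9). Between them Ldha was at 234 CPM and 253 CPM, while Ldhb was at 264 CPM and 60.9 CPM.

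**Figure D2:**
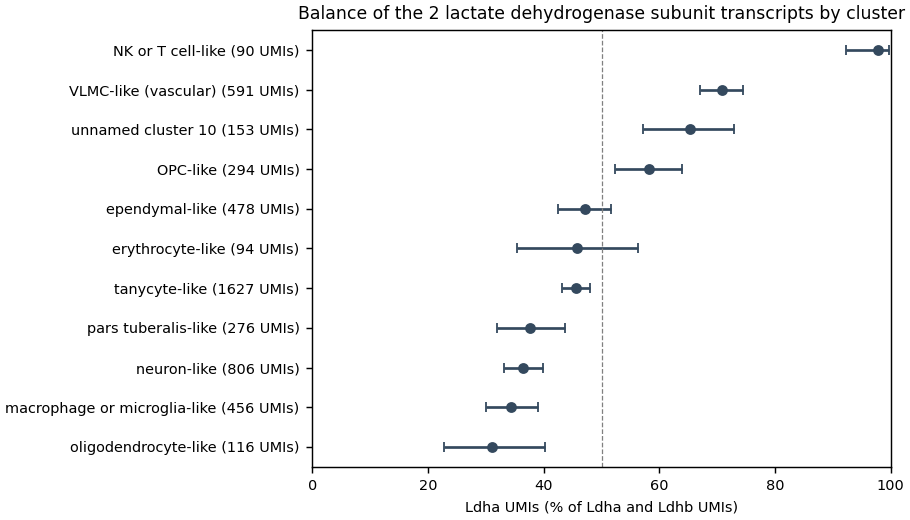
Share of Ldha among the UMIs of Ldha and Ldhb in each cluster, in percent (horizontal axis), with the number of UMIs of both beside the cluster's name. Points are shares and bars exact Clopper-Pearson 95% intervals; the share ran from 31.0% in oligodendrocyte-like to 97.8% in NK- or T-cell-like cells, and tanycyte-like cells lay at 45.5%, just under the dashed line of equal numbers.

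For reference, the 250 bases before the annotated start are shown for both subunits (RefSeq, GRCm38.p6, 5′ to 3′ on the gene's strand). They are chr7:46845554-46845803 on the plus strand for Ldha, the upstream of its 2 starts, and chr6:142507958-142508207 on the minus strand for Ldhb. Capitals mark ACGTG, the core of the element bound by hypoxia-inducible factors, searched on both strands (CACGT on the strand shown). It lies within the palindrome CACGTG, which then counts as 2 overlapping matches.
Ldha: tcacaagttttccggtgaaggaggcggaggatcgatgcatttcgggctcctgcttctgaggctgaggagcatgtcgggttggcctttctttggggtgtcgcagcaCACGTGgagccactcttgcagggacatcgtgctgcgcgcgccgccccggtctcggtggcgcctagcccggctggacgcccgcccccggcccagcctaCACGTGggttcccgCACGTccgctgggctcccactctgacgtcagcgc
Ldhb: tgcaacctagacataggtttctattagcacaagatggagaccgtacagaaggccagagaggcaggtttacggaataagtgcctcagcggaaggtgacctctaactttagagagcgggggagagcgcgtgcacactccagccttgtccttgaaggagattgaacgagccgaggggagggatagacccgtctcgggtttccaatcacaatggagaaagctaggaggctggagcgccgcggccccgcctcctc
The Ldha window held 5 matches to ACGTG, with CACGTG at 2 places, and the Ldhb window held 0, as did that of the second Ldha start. Of 32851 windows of the same kind, 16.6% held ACGTG, 6.02% CACGTG and 32.7% GGGCGG, the GC box, which was found at 2 places in the Ldha window and nowhere in that of Ldhb. G and C made up 67.2% of this Ldha window and 56.4% of that of Ldhb, beside a median of 52.4% over all windows. These are matches of letters, and no binding was measured. Their part in the balance of the subunits was not tested.

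Of the lactate transporters, Slc16a1 (ENSMUSG00000032902, chr3:104638668-104658462, plus strand) had the more UMIs, and its highest level was outside the ventricular clusters. The 23 cells of the unnamed cluster held 84 of its 272 UMIs, at 353 CPM (281 to 436), 7.78-fold above tanycyte-like cells. A UMI was seen in 78.3% (56.3 to 92.5) of these cells. Oligodendrocyte-like cells came next at 62.7 CPM (45.3 to 84.4), then tanycyte-like cells at 45.3 CPM (36.0 to 56.2) and ependymal-like cells at 38.2 CPM (21.8 to 62.0), whose intervals overlap. All other clusters were at 15.6 CPM or less, and 0.830% of erythrocyte-like cells had a UMI. Slc16a7 (ENSMUSG00000020102, chr10:125219270-125389465, minus strand), the neuronal monocarboxylate transporter, had 33 UMIs in all, 9 in OPC-like, 8 in VLMC-like, 7 in macrophage- or microglia-like and 4 each in oligodendrocyte-like and neuron-like cells. In tanycyte-like cells it had 0 UMIs, which allows up to 1.66 CPM, or a share of up to 1.69% of cells with a UMI, while Slc16a1 had 82. Bsg and Emb, which encode the partner proteins that bring these transporters to the membrane, stood at 1083 CPM and 13.81 CPM in tanycyte-like cells, and at 1171 CPM and 608 CPM in the unnamed cluster.

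Windows before the start of the 2 transporters of tanycyte-like cells are shown in the same way, chr4:119108495-119108744 for Slc2a1 and chr3:104638414-104638663 for Slc16a1, both on the plus strand.
Slc2a1: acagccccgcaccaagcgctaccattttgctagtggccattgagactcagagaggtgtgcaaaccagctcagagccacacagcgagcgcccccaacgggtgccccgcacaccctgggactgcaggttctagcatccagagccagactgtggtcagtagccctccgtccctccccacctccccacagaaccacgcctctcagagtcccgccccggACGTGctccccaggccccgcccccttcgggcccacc
Slc16a1: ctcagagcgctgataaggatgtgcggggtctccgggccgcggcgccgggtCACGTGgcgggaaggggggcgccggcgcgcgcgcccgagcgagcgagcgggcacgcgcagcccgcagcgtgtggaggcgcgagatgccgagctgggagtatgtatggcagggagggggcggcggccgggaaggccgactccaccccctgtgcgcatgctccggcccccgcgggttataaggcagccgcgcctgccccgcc
The Slc2a1 window held 1 match to ACGTG, 36 bases before the start, and that of Slc16a1 held 2 overlapping ones in 1 palindrome. G and C made up 66.4% and 76.4% of these windows. RefSeq windows were matched for 7 of the 9 genes, and beside these 2 and Ldha none held ACGTG. Slc2a3 and Slc16a7 had no entry.

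Pdk4 (ENSMUSG00000019577, chr6:5483351-5496309, minus strand) was barely detected in single cells, with 3 UMIs in oligodendrocyte-like and 3 in VLMC-like cells. Tanycyte-like cells held 0, which allows up to 1.66 CPM. At this depth no order of cell types can be given for it. Among the other genes that govern pyruvate entry into mitochondria, Mpc1 and Mpc2, subunits of the mitochondrial pyruvate carrier, were at 252 CPM and 346 CPM in tanycyte-like cells.

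Tanycyte-like cells were not uniform for Slc2a1. At a finer resolution 2 tanycyte-like clusters formed, 103 cells led by Ager, Sfrp5 and Adm (median 6714 UMIs) and 76 cells led by Cyr61, Fndc3c1 and Dio2 (median 12208 UMIs). The former held 101 cells of the tanycyte-like cluster and 2 of the ependymal-like cluster, the latter tanycyte-like cells alone, and 1 of the 178 cells joined another cluster. Slc2a1 was at 201 CPM (170.1 to 237) in the former and 82.4 CPM (66.3 to 101.3) in the latter, and after thinning to 3000 UMIs 43.7% and 22.4% of cells had a UMI. Ldha was at 512 CPM (462 to 567) against 344 CPM (310.5 to 381), and Aldoc at 2532 CPM against 2140 CPM. Ldhb, at 527 CPM (476 to 582) and 461 CPM (421 to 503), and Slc16a1, at 52.0 CPM and 41.2 CPM, had overlapping intervals. Rax marked both, at 668 CPM and 453 CPM. Every one of the 7 members with UMIs in these cells had its higher value in the 103 cells except Slc2a3, at 17.8 CPM and 22.9 CPM.

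The genes with the most similar pattern over the 11 clusters, by Pearson's r of log2(CPM + 1), give a description of where each member is found. The points share 1 library, and the numbers of UMIs per cluster differ. For Aldoc they were Nnat, Thrsp and Fbxo2 (r = 0.957 to 0.976), each with its highest level in ependymal-like cells. For Slc2a1 they were Ccdc191, 1700063D05Rik and Pxmp2 (r = 0.902 to 0.904). For Hk1 they were Tusc3, Cisd3 and Sun1 (0.961 to 0.981), and for Slc2a3 Kcnk1, Prr7 and Stk32c (0.901 to 0.911). Ldha was closest to Pigx, Pih1d1 and Sec61b (0.958 to 0.966), and Ldhb to Tctex1d2, B3galnt1 and Mras (0.958 to 0.965). Slc16a1 was closest to Ybx3, Gdpd5 and Hhip (0.885 to 0.927), all highest in the unnamed cluster. For the sparse Slc16a7 and Pdk4 the closest were Fscn1, Cdh10 and Tnfrsf21 (0.849 to 0.911) and Ppp1r14a, Aspa and Apod (0.889 to 0.955), of which Ppp1r14a and Aspa are oligodendrocyte genes.

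The wider pathway was taken from lists of 118 further genes. Of the glycogen genes 8 of 15 with a UMI were highest in tanycyte- or ependymal-like cells, as were 5 of 10 hypoxia targets, 5 of 11 further glucose transporters and 8 of 24 glycolytic enzymes. The counts were 2 of 11 for other lactate dehydrogenases and monocarboxylate transport, 2 of 14 for pyruvate entry, 1 of 7 for the pentose phosphate path, 2 of 9 for glucose sensing and 3 of 13 for targets of PPAR, FOXO and the glucocorticoid receptor. The background for each of these is the 21.4% of all genes with a UMI. The counts take the highest cluster however few its UMIs. Slc2a2 and Gckr, the 2 of the glucose sensing list, and Slc5a8 of the lactate list had 1 UMI each in the library. Slc2a2 is also among the 5 transporters. Of these, Slc2a8 was at 27.06 CPM in tanycyte-like and 26.95 CPM in OPC-like cells. No excess over the background is read from these counts. Of the glycolytic enzymes, Eno1 was at 1763 CPM in tanycyte-like cells against 1322 CPM in ependymal-like cells, its next highest cluster. Aldoa, the general aldolase, was at 1186 CPM in ependymal-like, 1138 CPM in neuron-like and 1081 CPM in tanycyte-like cells, and Gapdh was highest in neuron-like cells at 1153 CPM. Aldoa thus had like levels in ventricular and neuron-like cells, where Aldoc had not.

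Other named genes of the lists had their highest levels in various clusters, some of them narrowly. Slc50a1, a sugar efflux transporter, was at 128 CPM in tanycyte-like and 110.4 CPM in VLMC-like cells. Slc2a5, the fructose transporter, was at 54.5 CPM in macrophage- or microglia-like cells and at 1.496 CPM or less in all others. Slc2a13 (29.4 CPM), Slc16a11 (118 CPM), Pdha1 (206 CPM), Pygb (218 CPM), Gjb6 (432 CPM) and Gja1 (382 CPM) were highest in the unnamed cluster. Gja1, the gap junction gene through which glial cells pass glucose and its products, was next highest in ependymal-like (219 CPM) and tanycyte-like cells (204 CPM). Ppp1r3c, which targets a phosphatase to glycogen, was highest in ependymal-like cells at 126.5 CPM. In oligodendrocyte-like cells Mpc1 (562 CPM), Ugp2 (112 CPM), Taldo1 (1204 CPM), Tkt (309 CPM) and Ndrg1 (654 CPM) were highest, and Pgls was highest in OPC-like cells at 208 CPM. The hypoxia targets Adm, at 393 CPM and itself a marker used to name that cluster, and Vegfa, at 244 CPM, led in tanycyte-like cells. They were at 153 CPM and 74.0 CPM in ependymal-like cells. P2ry1 (120.0 CPM) and Tsc22d3 (950 CPM) were highest in VLMC-like, and Sgk1 (396 CPM) and Ucp2 (344 CPM) in macrophage- or microglia-like cells. Sgk1 was almost as high in oligodendrocyte-like cells, at 393.5 CPM, and Ugp2 in pars tuberalis-like cells, at 108.3 CPM.

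The bulk libraries addressed whether handling of glucose and lactate differed at the level of transcripts between control and BrafV600E mutant ME. Their totals ran from 4928456 to 13816596 counts, and 17874 to 40852 genes were detected, the fewest in control 3, the deepest library. Counts were scaled by TMM and are given as normalized CPM. Rax was detected in all 7 libraries, between 26.5 CPM and 175 CPM. Braf itself had a log2 fold change of 0.07 ± 0.43 (SE), which checks no label, because reads of the gene as a whole do not separate the mutant allele from the normal one. In tissue of mixed cells, fewer cells of a type and less RNA per cell cannot be told apart.

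None of the 9 members passed an adjusted p of 0.05 between mutant and control in edgeR's quasi-likelihood test, as was the case for all 20466 genes tested (0% called). In this test 0 of 9 members had an unadjusted p under 0.05, beside 8.12% of all genes, and 0 of 9 had groups that did not overlap, beside 8.92%. DESeq2, which called 376 of 47682 genes with any count, and limma-voom, which called 0 of 20466, called 0 of the members. The median log2 fold change of the members was 0.12 and that of all genes 0.13. All 9 passed the filter on low counts. The study itself reported genes that differed between tumour and control ME, by a filter not reproduced here. A count of 0 in edgeR therefore does not show that the tissues are alike.

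**Figure D3:**
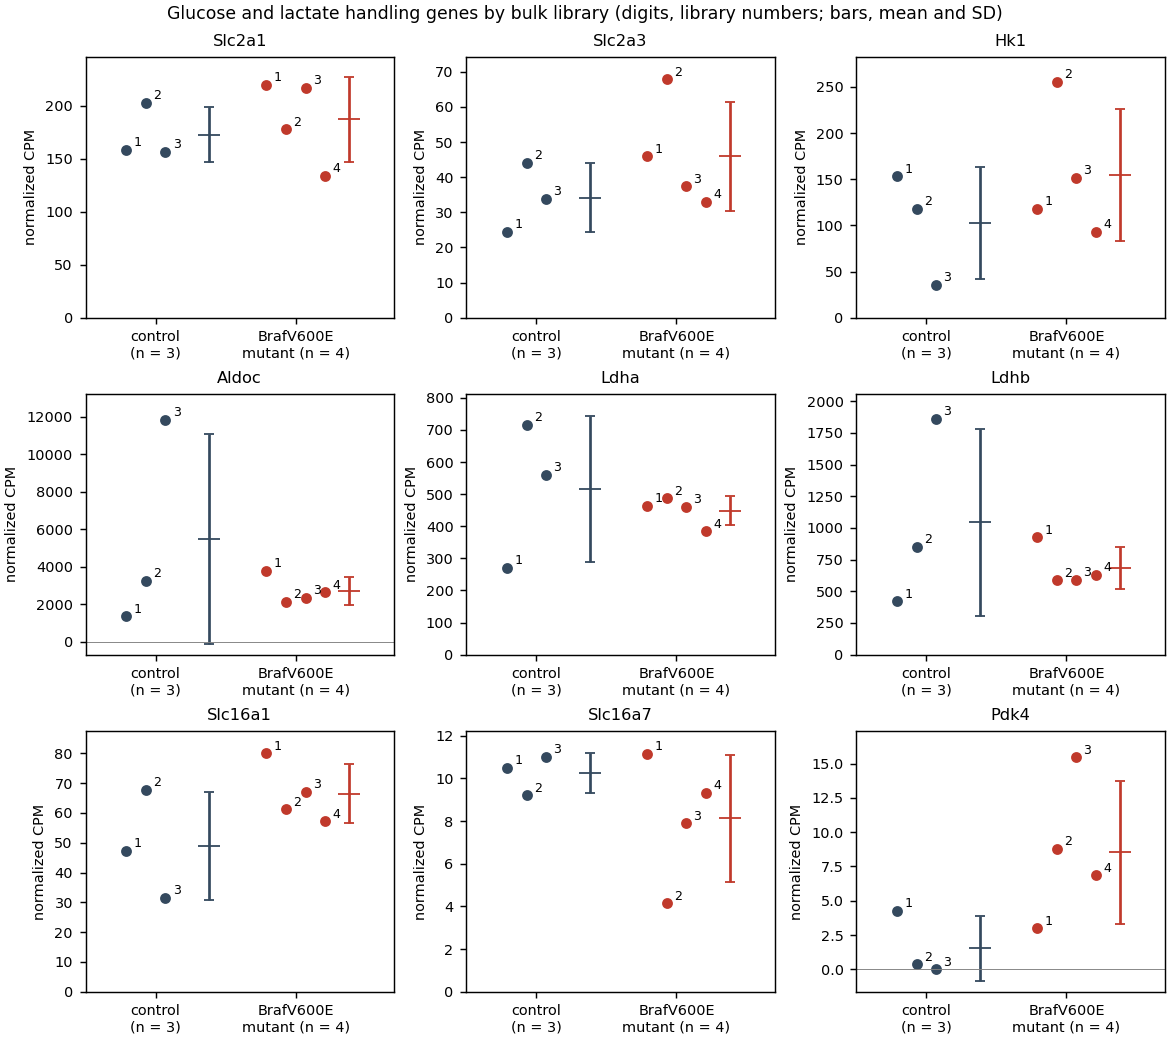
Normalized CPM of each of the 9 genes in each bulk library (vertical axis, linear), 3 control and 4 BrafV600E mutant, numbered as in the labels; bars beside the points are the mean and SD. The groups overlap for every gene, and control 3 stands apart from the other controls for Aldoc (11830 CPM) and Ldhb (1861 CPM).

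For Slc2a1 the control libraries were at 158.8, 203.1 and 156.6 CPM and the mutants at 220.0, 178.0, 217.1 and 134.2 CPM. The range of the mutants enclosed that of the controls. The log2 fold change was 0.12 ± 0.28 (SE), with a 95% interval of −0.50 to 0.74 (adjusted p = 0.946, edgeR). Slc2a3 was at 24.4, 44.1 and 33.9 CPM in controls and at 46.0, 67.8, 37.4 and 32.9 CPM in mutants. Mutants 1 and 2 were above all controls. Its log2 fold change was 0.44 ± 0.35 (adjusted p = 0.809).

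Hk1 was at 153.3, 118.2 and 35.3 CPM in controls and at 118.0, 255.4, 151.6 and 93.0 CPM in mutants, so that control 3 was the lowest and mutant 2 the highest. Its log2 fold change was 0.60 ± 0.50 (adjusted p = 0.812, edgeR). Hk1os overlaps Hk1 on the other strand, and reads of the 2 cannot be told apart in these libraries.

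Aldoc was at 1355, 3269 and 11830 CPM in controls and at 3785, 2127, 2350 and 2630 CPM in mutants. The controls were spread over a wider range than the mutants and enclosed them. Between the groups it had a log2 fold change of −1.0 ± 0.59, with a 95% interval of −2.31 to 0.31 (adjusted p = 0.718, edgeR), and it turned to 0.26 without control 3. Rax in control 3 was at 143 CPM beside 26.5 CPM and 40.8 CPM in the other controls. The summed level of the 12 tanycyte markers was 1122 to 1498 CPM in controls and 1051 to 1784 CPM in mutants, that of the 10 astrocyte markers 1678 to 5460 CPM and 2768 to 5790 CPM, and that of the 10 ependymal markers 159 to 276 CPM and 161 to 248 CPM. All of these ranges overlapped. In control 3 the sums were 1342, 5357 and 237 CPM in turn, none of them the highest among the controls. The part of these cell types in the values of Aldoc was not tested.

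Ldha was at 271.0, 716.4 and 560.7 CPM in controls and at 463.1, 487.1, 461.3 and 384.7 CPM in mutants, which lay within the controls. The log2 fold change was −0.19 ± 0.34 (adjusted p = 0.927, edgeR), and 0.15 without control 2. Ldhb was at 420.6, 852.7 and 1861 CPM in controls and at 924.8, 588.0, 590.5 and 632.0 CPM in mutants. Mutant 1 stood apart from the other mutants, and control 3 from the other controls. The log2 fold change was −0.60 ± 0.44 (adjusted p = 0.790), and 0.13 without control 3. Per kilobase of annotated exon, Ldha made up 23.4%, 28.5% and 12.5% of the 2 subunits in controls and 19.2%, 28.2%, 27.0% and 22.4% in mutants, which overlap. The exon length joined all annotated transcripts, 3310 bases from 15 for Ldha and 1570 bases from 4 for Ldhb. It can exceed that of the transcripts present, so these shares compare libraries and are not set beside those of single cells. Of the 50-base stretches of Ldhb, 21.0% also occur in a gene annotated as Gm5514, and 9.03% of those of Ldha occur in other annotated genes, so that counts of both are uncertain where reads were split among copies.

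Slc16a1 was at 47.4, 67.8 and 31.6 CPM in controls and at 80.0, 61.3, 67.2 and 57.2 CPM in mutants. Only mutant 1 was above all controls. The log2 fold change was 0.45 ± 0.32 (adjusted p = 0.781, edgeR). Slc16a7 was at 10.5, 9.21 and 11.0 CPM in controls and at 11.2, 4.14, 7.90 and 9.33 CPM in mutants. The mutants had a wider spread, with mutant 2 the lowest. Its log2 fold change was −0.33 ± 0.51 (adjusted p = 0.912).

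Pdk4 had the largest fold of the 9 and the fewest reads. Controls held 38, 4 and 0 counts, or 4.25, 0.354 and 0 CPM, and mutants 30, 85, 94 and 39 counts, or 2.99, 8.80, 15.5 and 6.87 CPM. Mutants 2, 3 and 4 were above all controls and mutant 1 was below control 1. Its log2 fold change in edgeR was 2.48 ± 1.30, with a 95% interval of −0.39 to 5.36 (adjusted p = 0.662). It was 5.47 without control 1, the only control with more than 4 counts, and was not called there. Controls 2 and 3, with 4 and 0 counts of Pdk4, had the fewest genes detected of the 7 libraries, 21986 and 17874. The part of this in the value of Pdk4 was not tested. Control 3 also listed Cspg4, an OPC gene, at 0 counts, where the other controls held 78 and 113.

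**Figure D4:**
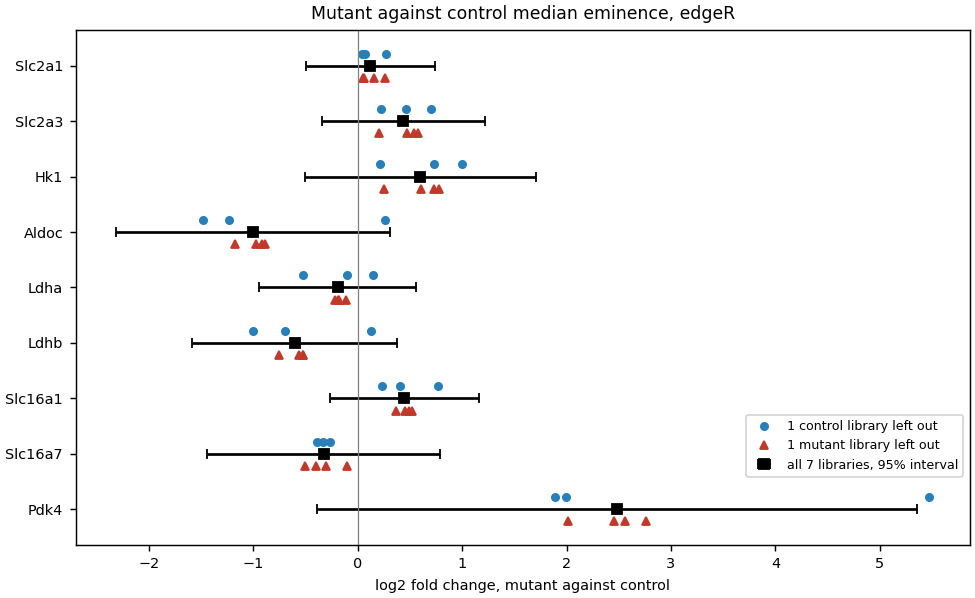
log2 fold change of each of the 9 genes between mutant and control ME (horizontal axis), fitted by edgeR. Black squares and bars are the value with all 7 libraries and its 95% interval, blue circles the values with 1 control left out and red triangles those with 1 mutant left out; every interval includes 0, and Aldoc and Ldhb cross 0 when control 3 is left out, as does Ldha without control 2.

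Ordered by mean level per kilobase of exon in controls, Aldoc was highest at 1681 ± 1709 CPM per kilobase (SD, n = 3), followed by Ldhb at 666 ± 471 and Ldha at 156 ± 68.3. Slc2a1 was at 49.3 ± 7.48, Hk1 at 11.99 ± 7.10 and Slc16a1 at 11.1 ± 4.10. Slc2a3 was at 4.71 ± 1.36, Slc16a7 at 0.865 ± 0.0787 and Pdk4 at 0.437 ± 0.671 CPM per kilobase. The controls of neighbours in this order overlapped for Aldoc and Ldhb, Hk1 and Slc16a1, and Slc16a7 and Pdk4, and not for the others. In mutants (n = 4) the values were 834 ± 226 for Aldoc, 436 ± 103 for Ldhb, 136 ± 13.4 for Ldha and 53.4 ± 11.5 for Slc2a1. Aldoc took 49.2% to 71.9% of the summed level per kilobase of the 9 genes in controls and 50.9% to 58.2% in mutants. The lengths join the exons of all annotated transcripts of a gene, so the order and these shares depend on the annotation.

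None of the cell type markers passed the threshold in edgeR, but several lists held genes whose groups did not overlap, beside 8.92% of all genes. The ependymal, macrophage or microglia, mural, erythrocyte and other pituitary lists held 0 such genes. The 8 OPC markers had a median log2 fold change of 2.84, with 6 of 8 higher in every mutant than in any control, and sums of 86.5 to 155 CPM in controls and 262 to 935 CPM in mutants. Of these, C1ql1 was at 0 counts in controls 2 and 3. The sums of the 8 VLMC markers were 1231 to 3009 CPM in controls and 563 to 901 CPM in mutants, and those of the 10 endothelial markers 347 to 598 CPM and 126 to 235 CPM. The 8 oligodendrocyte markers summed to 5899 to 18761 CPM and 3672 to 7345 CPM, and had a median log2 fold change of −1.28. Their part in the values of the members was not tested.

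In the 9 further lists of the pathway, of 118 genes, 0 passed the threshold in edgeR. DESeq2 called 1, Sgk1, beside 376 of all 47682 genes with a count. The counts per list below stand beside 8.12% of all genes with an unadjusted p under 0.05 and 8.92% without overlap. Of the 11 glucose transporters tested, 2 had an unadjusted p under 0.05, both lower in mutants. Slc2a8, an intracellular transporter, was at 64.7, 64.9 and 62.7 CPM in controls and at 54.9, 28.7, 29.3 and 31.0 CPM in mutants, with no overlap, and a log2 fold change of −0.83 ± 0.31 (adjusted p = 0.529, edgeR). Slc50a1 had a log2 fold change of −0.90 ± 0.33 (adjusted p = 0.520). Among 25 glycolytic enzymes, 2 had such a p and both were lower in every mutant than in any control, close to the shares of all genes. Pfkl, the liver-type phosphofructokinase, was at 156.0, 226.6 and 544.5 CPM in controls and at 137.5, 144.9, 112.8 and 94.5 CPM in mutants, with a log2 fold change of −1.33 ± 0.40 (adjusted p = 0.441, edgeR). Eno3, the muscle enolase, had a log2 fold change of −1.07 ± 0.45 (adjusted p = 0.579). The median log2 fold change was −0.22 over the transporters and −0.05 over the enzymes, beside 0.13 over all genes.

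Among 12 genes of other lactate dehydrogenases and monocarboxylate transport, 3 had an unadjusted p under 0.05, all lower in mutants. The share of all genes with such a p was 8.12%. Emb, which encodes an ancillary protein, was at 608 CPM in the unnamed and 517 CPM in the pars tuberalis-like cluster of single cells. In bulk it was at 226.1, 221.1 and 287.7 CPM in controls and at 169.2, 112.4, 112.3 and 102.1 CPM in mutants, which did not overlap. Its log2 fold change was −0.98 ± 0.28 (adjusted p = 0.428, edgeR). Slc16a3, the lactate exporter of glycolytic cells, was at 20.1, 21.5 and 1.28 CPM in controls and at 2.99, 2.28, 4.28 and 1.23 CPM in mutants, so that control 3 lay among the mutants (log2 fold change −2.40 ± 0.85). The list had a median log2 fold change of −0.76. Pars tuberalis markers summed to 2356 to 12844 CPM in controls and 719 to 3809 CPM in mutants, and their part in the value of Emb was not tested.

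For pyruvate entry 0 of 14 genes had an unadjusted p under 0.05 in edgeR, the smallest being those of Pdp1 (log2 fold change 0.65 ± 0.31), the phosphatase that opposes the Pdk kinases, and Dld (−0.60 ± 0.35). In the glycogen list 1 of 15 had such a p, beside 8.12% of all genes. Ppp1r3c was at 26.3, 45.5 and 18.6 CPM in controls and at 68.0, 50.5, 62.1 and 58.3 CPM in mutants, without overlap (log2 fold change 0.99 ± 0.35, adjusted p = 0.514, edgeR), and Phkg1, a phosphorylase kinase subunit, had a log2 fold change of 0.96 ± 0.50. In the pentose phosphate list 0 of 7 had one, and the smallest were those of Taldo1 (−0.29 ± 0.28) and Rpe (0.36 ± 0.41). Of 11 glucose sensing genes 1 had one. Gja1 was at 167.8, 283.0 and 145.4 CPM in controls and at 556.3, 389.4, 370.5 and 338.9 CPM in mutants, without overlap, with a log2 fold change of 1.06 ± 0.33 (adjusted p = 0.444, edgeR), and Glp1r had 1.35 ± 0.69. Astrocyte markers, 5 of 10 of which did not overlap between the groups, beside 8.92% of all genes, are given above with their sums.

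In the list of targets of PPAR, FOXO and the glucocorticoid receptor, to which Pdk4 belongs by its known regulation, 3 of 13 genes had an unadjusted p under 0.05, 2 of them higher in mutants. The share of all genes with such a p was 8.12%. Sgk1, a glucocorticoid-induced kinase, was at 53.1, 57.0 and 12.2 CPM in controls and at 161.0, 180.8, 132.0 and 127.5 CPM in mutants, without overlap (log2 fold change 1.89 ± 0.48, adjusted p = 0.376, edgeR). Irs2, a FOXO target, had a log2 fold change of 1.36 ± 0.52 (adjusted p = 0.529), with control 1 above mutant 1. Among 9 hypoxia targets tested, 1 had such a p. Adm, found above in tanycyte-like cells, was at 32.7, 109.3 and 87.5 CPM in controls and at 56.5, 21.0, 17.6 and 10.6 CPM in mutants (log2 fold change −1.52 ± 0.57, adjusted p = 0.522), and Bnip3 had −0.73 ± 0.37. Vegfa, in contrast, was at 5.81 to 7.62 CPM in controls and 5.28 to 7.92 CPM in mutants, with a log2 fold change of −0.06 ± 0.54.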

How the data were processed

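The 9 genes and the gene lists were chosen with earlier results of these data known. For single cells, the authors deposited UMI counts per gene and cell, made with Cell Ranger (2.0.1 in the submitters' processing notes) (GRCm38 and mm10 are the builds named there). For bulk ME, the authors deposited raw read counts per Ensembl gene of 3 control and 4 mutant libraries. The aligner and counter are not given in the sources used here. No sample column was left unused.

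Bulk counts were tested in edgeR 4.0.16 (TMM, filterByExpr by group, quasi-likelihood test without covariates, Benjamini-Hochberg over 20466 genes, threshold 0.05). SEs were derived from the F statistic. P-values measure the spread between these libraries, each given as 1 mouse. Alternatives were DESeq2 1.42.0, limma-voom 3.58.1, other scalings, other filters, a replicate block and each library left out. In data simulated at these depths over 20466 genes, edgeR recovered 23% of 200 genes changed 4-fold between mutant and control and 61.5% of those changed 16-fold.

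UMIs were clustered in Seurat 5.3.0 (4844 variable genes by mean 0.02 to 8 and dispersion of at least 0.5, of which 4807 remained without the pathway genes, 20 components, resolution 0.8). A marker counted at 3 times the CPM of all other cells, and a name needed 3. Scrublet called 3 cells doublets, which were kept. In cells outside the erythrocyte-like cluster, haemoglobin RNA made up 0.362% of UMIs at the median. With 0 UMIs, the limit is 3 UMIs. Exon lengths (exons of all transcripts of a gene joined) and coordinates are from GENCODE M21, and promoters from RefSeq GRCm38.p6. Bulk genes were named as the 2 with the smallest unadjusted p of each list, and single-cell genes as the 3 with the highest CPM. The split of the pars tuberalis-like, VLMC-like, OPC-like and tanycyte-like clusters, and Vegfa, were chosen after the data were seen.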

Additional observations from a re-analysis of the deposited data

Results flagged for a closer look

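Of 27 genes whose normalized CPM was checked in the 4 mutant libraries, 3 had a library far from the others, where chance flags about 1 in 20 groups. Each was in mutant 1, whose Ldhb (924.8 CPM), Slc2a8 (54.9 CPM) and Emb (169.2 CPM) lay above the other mutants, with a gap of 0.869, 0.912 and 0.846 of the group's range. Mutant 1 also had the highest Rax of the 7 libraries, 175 CPM, and its part in these values was not tested.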

How the results depend on the processing

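Over 15 alternatives 0 members were called in any, and Slc2a1, Slc2a3, Hk1, Slc16a1 and Slc16a7 kept their direction in all 15, Pdk4 in the 14 that tested it (log2 fold changes of 1.89 to 5.47). An unadjusted p under 0.05 was found in 4 of these 14 for Pdk4, in 2 of 15 for Aldoc and in 1 of 15 for Ldhb. The smallest adjusted p of Pdk4 was 0.082, in edgeR without control 1. Leaving out 1 library reversed Ldha (−0.52 to 0.15 over these fits, reversed without control 2), Aldoc (−1.48 to 0.26) and Ldhb (−1.001 to 0.13), both reversed without control 3. The number of all genes called was 0 of 20466 with limma-voom and the replicate block. Of the same 20466 it was 1 with RLE size factors, 1 with upper-quartile scaling and 3 with library sizes alone. The last of these moved the median log2 fold change of all genes from 0.13 to 0.25. The number was 13 of 12402 with at least 10 counts in every library. It was 240 of 47682 with no filter on low counts and 376 of 47682 with DESeq2. Without 1 library it was 0 to 45, with 45 without control 1 and 16 without control 3. Of the other pathway genes, 1 was called with DESeq2 and 1 with no filter, Sgk1 in both. Control and mutant libraries of the same number did not deviate together (r of −0.454, −0.00762 and −0.227), so the numbers were not taken as pairs, and the block changed no call. The cause of these shifts was not tested.

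The number of members highest in tanycyte-like clusters was 1, and 3 at resolution 0.4, 2 at resolution 1.2, 4 with 30 components, 4 with the members and pathway genes kept among the variable genes, 1 with 10 components, 1 without called doublets and 0 by means of log-normalized values. At resolution 0.4, with 10 or 30 components and with the pathway genes kept, no separate ependymal-like cluster remained. Counted over tanycyte- and ependymal-like clusters together, which was added after the data were seen, it was 4 and ranged from 1 to 5. With all tanycyte-like clusters of a setting pooled, the CPM of the members stayed within the main Poisson intervals in 54 of 54 values. These pools, of 178 to 227 cells, are largely the cells of the main cluster, so this agreement was to be had from the overlap. It does not hold for single clusters: at resolution 1.2 Slc2a1 was at 201 CPM and 82.4 CPM in the 2, beside a main interval of 114.2 to 148.1 CPM. Depth limits the sparse genes most: 1 UMI in tanycyte-like cells is 0.552 CPM, and 3 counts in a bulk library are 0.256 to 0.528 CPM.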
